A study of Mus musculus with 4 samples.

Results

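The 8 genes followed here encode proteins that package, remodel or mark chromatin, and their levels are given across the 15 numbered cell clusters of a mouse stem cell differentiation. They are Smarcc1, Smarcb1, Trim28, Cbx1, H2afx, Hist1h1e, Hmga2 and Anp32b, taken by name from the authors' deposited table of cluster marker genes, which holds 1197 genes. All 8 were found, in 34 of the table's 2212 entries. The names were chosen with earlier results of these data known, so the pattern they were chosen for is described here and supports nothing.

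The cells came from an embryonic stem cell line with the genotype BRG1 3XFLAG, a triple FLAG tag on the ATPase BRG1, and from the same genotype with a knockout of Brm (BRG1 3XFLAG; BRM KO). Both were steered towards heart cells, and single cells were captured at a mesoderm stage and at a stage labelled cardiac myocyte by source and cardiac progenitors by cell type. Each of the 4 combinations of genotype and stage was 1 library, every library carried the tagged BRG1, and the sources used here do not give the number of clones behind each line. The table names no library, and since its deposited title speaks of the Brm knockout alone, it may not cover the wild-type cells. Its entries thus compare clusters, and a difference between clusters cannot be told apart from 1 of genotype, stage or library. No value has a replicate, a standard error or a test.

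BAF complexes, the mammalian SWI/SNF remodellers, use the energy of ATP to slide or evict nucleosomes. BRG1 (Smarca4) and Brm (Smarca2) are their alternative ATPases, and Smarcc1 (BAF155) and Smarcb1 (BAF47) are core subunits that hold the complex together and contact the nucleosome. The other 6 proteins act on the same fibre in other ways: TRIM28 is a corepressor that brings silencing enzymes to zinc finger factors, CBX1 (HP1 beta) binds methylated histone H3, H2AX is the histone H2A variant that is phosphorylated at DNA breaks, H1.4 (Hist1h1e) is a linker histone, HMGA2 is an architectural protein that binds AT-rich DNA and marks embryonic and proliferating cells, and ANP32B is an acidic histone chaperone.

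The knocked-out gene cannot be used to check the labels. Smarca2 and Smarca4 had 0 entries in the authors' deposited table, for any of the 15 clusters, and it lists a gene only where it passed the table's thresholds. No natural log fold change in it was smaller in size than 0.50, the larger of both detection shares was at least 25.1%, and the largest p-value was 0.0076. A cluster without an entry may therefore still differ from the other cells by less than these thresholds. Clusters are called like a cell type where at least 3 markers of 1 list were listed higher. This made cluster 2 cardiomyocyte-like (14 markers), clusters 1 and 4 neural-progenitor-like (5 each), cluster 12 neuron-like (7) and cluster 14 endoderm-like (8). Cluster 14 also listed 6 epithelial and 2 pluripotent markers as higher. Clusters 5, 9, 10 and 11 were mesenchyme-like (4, 5, 8 and 3). Clusters 0 and 7 had 3 and 4 nascent mesoderm markers and are called mesoderm-like only. The nascent mesoderm marker T was listed higher in cluster 3 alone. Tcf15, which is not on that list, was listed higher in clusters 0 and 7. Clusters 3, 6, 8 and 13 are called by number. Of the markers of the labelled mesoderm, 6 of 16 were in the table, and Mesp1 and Mixl1 were not among them. In cluster 13 the cardiomyocyte markers stood beside all 10 mitochondrially encoded genes of the table, listed higher.

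Promoter sequences are given for the 3 genes that were listed in both directions, Hist1h1e, Hmga2 and Anp32b, and for both BAF subunits. They are the 250 bases before the annotated start, 5′ to 3′ on the gene's strand, from RefSeq on GRCm38.p6, which is not the mm9 build named in the submitters' processing notes. Of the 8 genes, 7 had a promoter entry, Hist1h1e under its current symbol H1f4. Capitals mark matches on either strand to the CCAAT box (CCAAT), the GC box (GGGCGG), the TATA box (TATAAA) or the H1 box of linker histone genes (AAACACA). The Hist1h1e window is chr13:23622559-23622808, minus strand; that of Hmga2 is chr10:120476470-120476719, minus strand; that of Anp32b is chr4:46450676-46450925, plus strand. Those of the BAF subunits are chr9:110131774-110132023, plus strand, for Smarcc1 and chr10:75921615-75921864, minus strand, for Smarcb1.
Hist1h1e: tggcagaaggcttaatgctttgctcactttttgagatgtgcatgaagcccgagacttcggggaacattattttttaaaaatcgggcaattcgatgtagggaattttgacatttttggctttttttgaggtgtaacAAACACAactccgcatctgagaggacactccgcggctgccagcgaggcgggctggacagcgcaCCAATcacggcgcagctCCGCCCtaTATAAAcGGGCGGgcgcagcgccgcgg
Hmga2: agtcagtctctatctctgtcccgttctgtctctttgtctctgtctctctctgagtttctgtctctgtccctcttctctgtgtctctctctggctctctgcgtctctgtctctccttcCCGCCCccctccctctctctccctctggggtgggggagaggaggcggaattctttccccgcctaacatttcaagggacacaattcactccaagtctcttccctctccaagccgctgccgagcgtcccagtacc
Anp32b: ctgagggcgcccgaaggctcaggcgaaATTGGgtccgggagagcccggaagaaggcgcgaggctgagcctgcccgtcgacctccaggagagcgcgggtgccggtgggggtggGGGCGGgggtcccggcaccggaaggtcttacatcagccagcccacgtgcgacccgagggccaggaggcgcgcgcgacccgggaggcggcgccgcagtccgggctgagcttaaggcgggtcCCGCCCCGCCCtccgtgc
Smarcc1: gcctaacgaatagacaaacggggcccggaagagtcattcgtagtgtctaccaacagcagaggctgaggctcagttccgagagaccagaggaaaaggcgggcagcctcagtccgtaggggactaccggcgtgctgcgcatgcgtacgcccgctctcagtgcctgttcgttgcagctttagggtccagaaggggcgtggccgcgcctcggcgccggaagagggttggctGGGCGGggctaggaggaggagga
Smarcb1: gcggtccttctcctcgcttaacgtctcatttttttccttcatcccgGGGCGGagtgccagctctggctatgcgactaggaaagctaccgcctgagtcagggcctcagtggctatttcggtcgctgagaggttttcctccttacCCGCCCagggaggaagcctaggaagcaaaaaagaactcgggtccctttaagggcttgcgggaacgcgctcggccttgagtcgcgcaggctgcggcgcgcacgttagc

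The Hist1h1e window held, in order towards the start, an H1 box that ends 109 bases before it, a CCAAT box at 52 to 48, a GC box at 35 to 30, a TATA box at 27 to 22 and another GC box at 20 to 15, the kinds of element known from linker histone promoters. It was the only 1 of the 7 windows with a TATA box or an H1 box match, which 12.4% and 6.25% of all 32851 windows in the promoter table held. A GC box was present in 7 of 7 windows, against 32.7% of all windows, and a CCAAT box in 2 of 7, against 33.8%. The E2F forms searched (TTTCCCGC, TTTGGCGC, TTTCGCGC and TTTGCCGC) were in 0 of 7 windows and in 1.86% of all windows. CG dinucleotides numbered 31 in the Anp32b window, 21 in each of the Smarcc1 and Smarcb1 windows, 19 in that of Hist1h1e and 8 in that of Hmga2, against a median of 6 over all windows. A match is a stretch of letters and not a bound site.

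Cluster 2, the cardiomyocyte-like cells, listed all 8 genes as lower. Of all genes in the table, 25.7% were listed lower in that cluster, and because the 8 were chosen knowing such results, nothing is read from the difference. Across the 8, the median was 2.58-fold lower, against 1.96-fold over the 308 genes listed lower there.

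Both BAF subunits were among them. Smarcc1 was detected in 18.0% of cells inside cluster 2 and in 49.5% outside, and its mean was 2.19-fold lower according to the authors' deposited table. Smarcb1 was detected in 10.0% against 30.0% of cells and was 1.73-fold lower according to the authors' deposited table, the smallest fold of the 8. Its detection outside cluster 2 was also the lowest of the 8. Cluster 2 was solved to hold 12.6% of all cells, and it held 5.0% of the cells that detected Smarcc1 and 4.6% of those that detected Smarcb1. These shares combine the authors' deposited detection with cluster sizes worked out from it.

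The heterochromatin genes were listed lower as well. Trim28 was detected in 19.5% of cells in cluster 2 against 46.2% outside and was 1.91-fold lower according to the authors' deposited table. Cbx1 was detected in 19.3% against 55.1% and was 2.48-fold lower according to the authors' deposited table. Both genes were thus found in about the same share of cardiomyocyte-like cells, from unequal shares elsewhere.

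Deposited folds were larger for the genes of histone and DNA-binding proteins. A constant added before logs, unknown here, would make folds of weakly detected genes too small, so the order of these folds is uncertain. H2afx was detected in 17.1% of cells against 50.9% and was 2.97-fold lower according to the authors' deposited table. Hist1h1e was detected in 7.80% against 34.8%, the lowest detection of the 8 inside cluster 2, and was 2.69-fold lower according to the authors' deposited table. Hmga2, at 15.9% against 53.3% and 3.01-fold lower, had the largest fold of the 8 according to the authors' deposited table. Anp32b, at 31.4% against 72.1% and 2.98-fold lower, had the largest difference in detecting cells, -40.7 percentage points, according to the authors' deposited table.

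**Figure D1:**
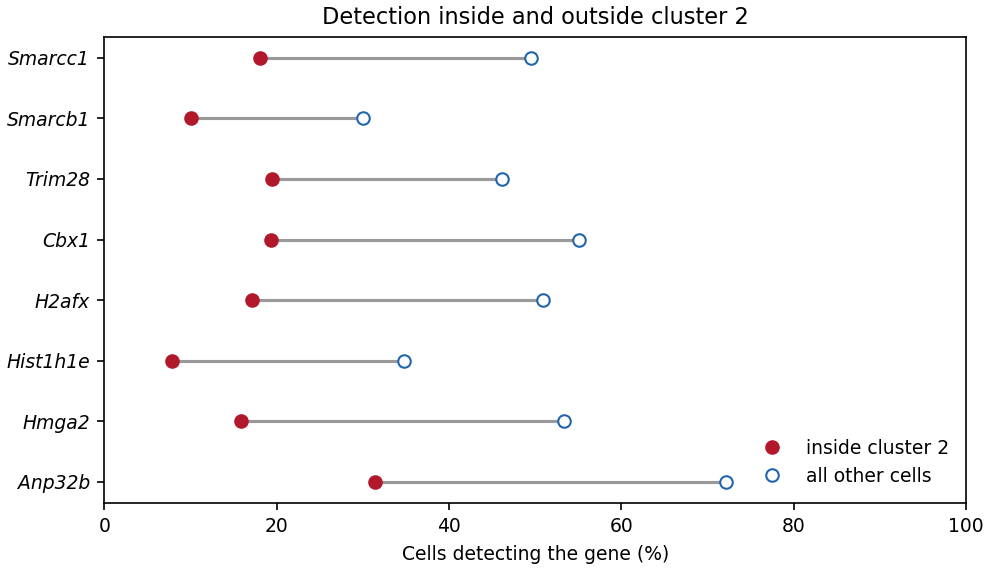
Percent of cells in which each of the 8 genes was detected (x axis) inside cluster 2 (filled points) and in all other cells (open points), from the authors' deposited table. Each line joins the values of 1 gene; every inside value lies between 7.8% and 31.4% and below its outside value, and no replicate spread exists.

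Cell cycle genes were also listed lower in cluster 2. Of the list genes in the table, 21 of 21 for G2 and M phase and 9 of 10 for S phase were listed lower. The medians were 2.14-fold and 2.17-fold. Of all genes in the table, 25.7% were listed lower there. The lists, like the 8 genes, were chosen with earlier results known, so nothing is read from the difference. The segregation gene Cenpf was 3.51-fold lower and Mki67, a marker of proliferating cells, 2.14-fold lower according to the authors' deposited table. Of 10 mitochondrially encoded genes in the table, 4 were listed higher there. The part of proliferation, of depth per cell or of mitochondrial reads in the values of the 8 genes was not tested.

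Other chromatin genes were looked up in 9 lists that hold 214 genes, of which 47 were in the table and 39 of these were not among the 8. Of those 39, 30 (76.9%) were listed lower in cluster 2 and 0 higher, with a median of 2.28-fold. Beside this, 25.7% of all genes in the table were listed lower there, and these lists too were chosen with earlier results known. Several of them are on more than 1 list: Ssrp1 on 2 chromatin lists, Nasp also on the S phase list, and Hmgb2, Cbx5, Cenpa and Anp32e also on the G2 and M phase list. Genes that reached the table at all had to differ somewhere, so the share says nothing of the 167 list genes that did not.

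By complex, the BAF list had 3 of its 28 genes in the table and all 3 were listed lower in cluster 2. The third was Actb, the cytoskeletal actin that is also a BAF subunit, at 2.07-fold according to the authors' deposited table. Among other remodellers, 3 of 6 were listed lower, and the ISWI ATPase gene Smarca5 was 2.14-fold lower according to the authors' deposited table. Among heterochromatin genes the third was Cbx5, which encodes HP1 alpha, at 1.80-fold lower according to the authors' deposited table. Of the Polycomb list, 2 of 4 were listed lower, with the H3K27 methyltransferase gene Ezh2 at 2.51-fold according to the authors' deposited table. Dnmt3b, which encodes a DNA methyltransferase, was the only DNA methylation gene in the table and had no entry for cluster 2.

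Histone and HMG genes followed the same direction, in counts that include H2afx, Hist1h1e, Hmga2 and Anp32b. Of the core histone and variant list, 7 of 8 were listed lower in cluster 2, and the replacement histone gene H3f3b was 3.28-fold lower according to the authors' deposited table. Of 3 linker histone genes, H1fx was 2.27-fold lower there according to the authors' deposited table and Hist1h1b had no entry. All 5 HMG list genes were listed lower, with Hmgb2 at 3.18-fold, Hmgb1 at 2.98-fold and Hmgb3 at 2.73-fold according to the authors' deposited table. Of histone chaperone and acidic nuclear protein genes, 14 of 15 were listed lower. Ptma, which encodes prothymosin alpha, was 5.83-fold lower, the nucleolin gene Ncl 3.99-fold and the SET chaperone gene Set 3.8-fold, according to the authors' deposited table.

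**Figure D2:**
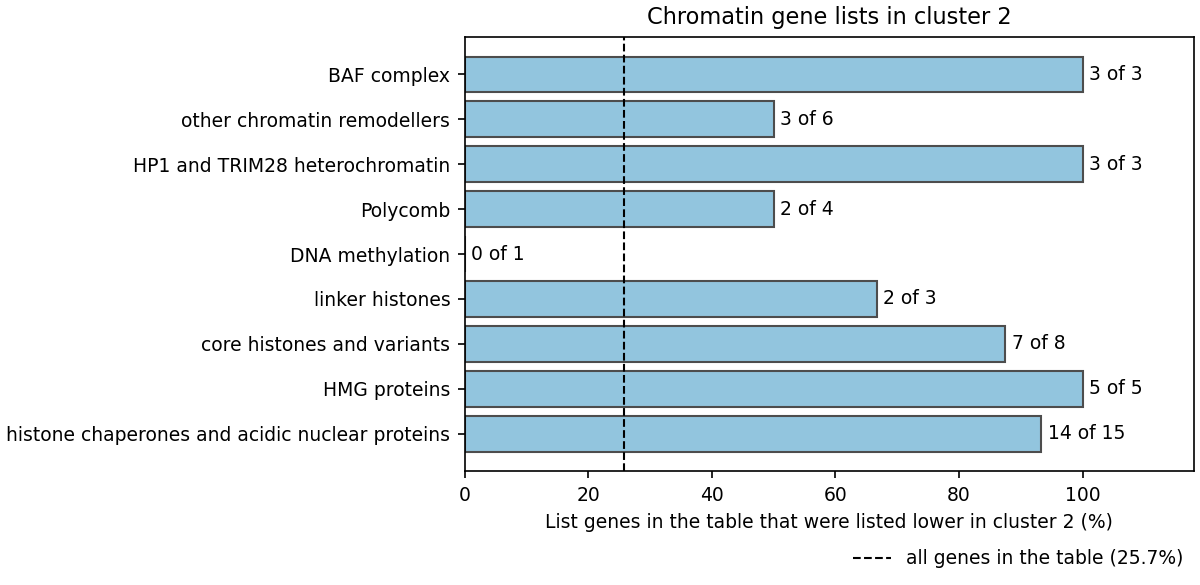
Share of the genes of each chromatin list that were in the deposited table and listed lower in cluster 2 (bars, x axis in percent), with the counts beside each bar. The dashed line is the share over all 1197 genes in the table, 25.7%. Of the 9 lists, 8 lie above it, and lists with 1 to 6 genes rest on few values. The bars include the 8 genes followed here. Those genes and the lists were chosen with earlier results known, so nothing is read from the distance to the line.

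Away from cluster 2 the 8 genes parted. Smarcb1 and Trim28 had no other entry, and 180 other genes of the table shared that pattern of a single lower entry in cluster 2. Smarcc1 and Cbx1 had 2 entries each and H2afx 4, all lower. Hmga2 and Anp32b had 7 each and Hist1h1e 10, and these 3 were listed higher as well as lower.

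**Figure D3:**
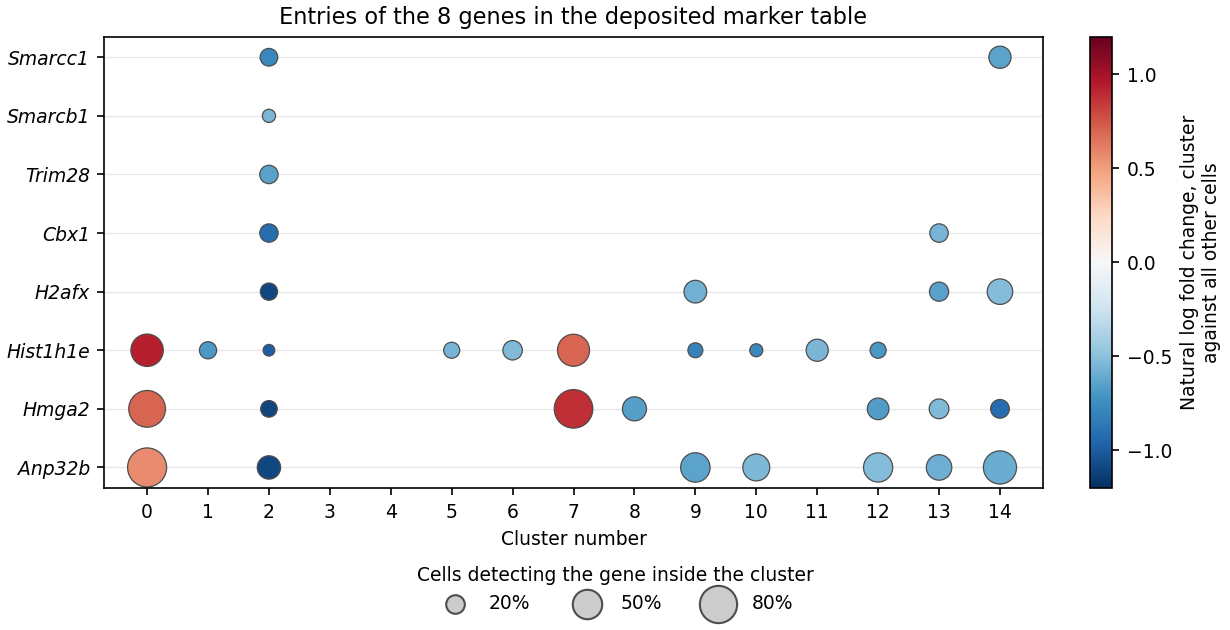
Every entry of the 8 genes (rows) in the 15 clusters (x axis) of the deposited table. Colour is the natural log fold change against all other cells (blue lower, red higher), point area is the percent of cells detecting the gene inside the cluster, and an empty position means no entry; cluster 2 is filled for all 8 genes and clusters 3 and 4 for none.

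Higher entries were found only in clusters 0 and 7, the mesoderm-like cells led by the retinoic acid binding gene Crabp1. Cluster 0 listed 3 of the 8 genes as higher, against 3.09% of all genes in the table. Cluster 7 listed 2, against 3.34%.

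To set clusters side by side, each level was divided by the gene's mean over all cells, using the deposited fold change and the solved cluster size. On this ratio scale Hist1h1e was at 2.05 in cluster 0 and 1.89 in cluster 7, and between 0.404 and 0.607 in the 8 clusters that listed it lower. From lowest to highest these were clusters 2, 9, 10, 12, 1, 11, 5 and 6, and with no error on any of them neighbours in this order cannot be told apart. The other 5 clusters, pooled, stood at 1.10. Hist1h1e was therefore listed lower in the cardiomyocyte-like cluster 2, in mesenchyme-like and neuron-like cells, in 1 of the 2 neural-progenitor-like clusters and in cluster 6. It was listed higher in clusters 0 and 7. Cluster 13, where 13 cardiomyocyte markers were listed higher, had no entry for Hist1h1e. Cluster 3 also listed 3 nascent mesoderm markers as higher (Cer1, Ifitm1 and T), beside 7 epithelial ones, and had no entry for Hist1h1e or any other of the 8 genes.

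Detection gave the same order at the top. Hist1h1e was detected in 60.4% of cells in cluster 0 against 26.1% outside, a 2.54-fold higher mean, according to the authors' deposited table. In cluster 7 it was detected in 59.1% against 29.4%, 2.02-fold higher, according to the authors' deposited table. Clusters 0 and 7, with 15.5% and 6.95% of all cells, held 29.9% and 13.1% of the cells that detected Hist1h1e.

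Among the lower entries, cluster 9 was detected at 12.8% against 32.1% and 2.22-fold lower, and cluster 10 at 9.70% against 32.1% and 2.16-fold lower, according to the authors' deposited table. For the neuron-like cluster 12, detection of Hist1h1e was 14.8% against 31.7%, with a 2.02-fold lower mean, according to the authors' deposited table. Cluster 1, one of the neural-progenitor-like pair, had 17.0% against 33.6% and was 1.99-fold lower according to the authors' deposited table. In clusters 5 and 6 Hist1h1e was detected in 14.8% and 21.8% of cells and was 1.75-fold and 1.70-fold lower according to the authors' deposited table. Hist1h1e was the only 1 of the 8 genes listed for clusters 1, 5, 6 and 11, where 2.59%, 4.26%, 2.17% and 1.59% of all genes in the table were listed lower.

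Most mRNAs of the replication-dependent histone genes end in a stem-loop without a poly(A) tail, and the droplet method primes on poly(A). Values of Hist1h1e, and of any other such gene named here, may therefore follow only the tailed part of the transcripts. The coding sequence of Hist1h1e is close to those of other H1 genes. The sources used here do not say how reads that fit more than 1 gene were treated. The S phase linker histone gene Hist1h1b was higher in cluster 0, at 1.87-fold, and in clusters 7 and 8, at 1.82-fold each, according to the authors' deposited table. Hist1h1e had no entry for cluster 8.

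Hmga2 had its highest level in cluster 7, at 2.19 times its mean over all cells, followed by cluster 0 at 1.74. It was detected in 85.6% of cells of cluster 7 against 45.8% outside, a 2.41-fold higher mean, according to the authors' deposited table. Cluster 0 had 77.6% against 43.2% and a 2.01-fold higher mean according to the authors' deposited table. The pair thus stood in the opposite order for Hmga2 and for Hist1h1e, a difference that could not be tested.

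The lower levels of Hmga2 were 0.363 of its mean over all cells in cluster 2, 0.40 in cluster 14, 0.516 in cluster 12, 0.534 in cluster 8 and 0.590 in cluster 13. The 8 clusters with no entry stood together at 0.863. In cluster 8, led by the pluripotency gene Pou5f1, Hmga2 was detected in 33.4% of cells against 49.5% and was 1.93-fold lower according to the authors' deposited table. It was the only 1 of the 8 genes listed for that cluster, where 4.26% of all genes in the table were lower and 5.51% higher. Of the 39 other chromatin genes, 10 were listed higher in cluster 8 and 0 lower, among them Ncl at 1.98-fold and the chaperone gene Set at 1.85-fold according to the authors' deposited table. The largest of the 10 was Dnmt3b, at 4.41-fold according to the authors' deposited table, which is also on the list of pluripotent markers. The HMG relative of Hmga2, Hmgb2, was 1.65-fold higher there according to the authors' deposited table. Of the cell cycle lists, 3 S phase genes (Dut, Hells and Nasp) and 3 G2 and M phase genes (Cenpf, Hmgb2 and Tubb4b) were listed higher in cluster 8 and 0 lower, and mt-Co1 was listed lower. Hells, Nasp and Hmgb2 are also on the chromatin lists. The part of these genes in the values of cluster 8 was not tested.

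In the neuron-like cluster 12 Hmga2 was detected in 26.9% of cells against 48.9% and was 1.95-fold lower according to the authors' deposited table. Anp32b, Hist1h1e and Hmga2 were all listed lower in that cluster, 3 of the 8 genes against 3.84% of all genes in the table. The S phase genes Dut, Mcm6 and Nasp and the G2 and M phase genes Cenpf and Top2a were also listed lower there, and their part in these values was not tested.

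Anp32b was the most widely detected of the 8 genes, in 67.0% of all cells. Its level was 1.58 times its mean over all cells in cluster 0, where it was detected in 87.7% of cells against 63.1% and was 1.77-fold higher according to the authors' deposited table. With cluster 2 taken out of the reference, that fold was 1.60 and below the table's threshold. Anp32b had no entry for cluster 7. Its lower levels were 0.366 in cluster 2, 0.534 in cluster 9, 0.552 in cluster 14, 0.557 in cluster 13, 0.589 in cluster 10 and 0.601 in cluster 12, and the 8 other clusters stood together at 1.04.

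Of the 14 other chaperone genes in the table, 5 were listed higher in cluster 0 and 3 in cluster 7, and the rest had no entry there. Both clusters had Nasp, a carrier of histones H3 and H4, at 2.22-fold and 1.88-fold according to the authors' deposited table. The FACT subunit gene Supt16h was 1.82-fold and 1.81-fold higher according to the authors' deposited table. Of the 39 other chromatin genes, 6 were listed higher in cluster 0 and 5 in cluster 7, and 0 were listed lower in either. From the cell cycle lists, Mcm6, Nasp, Mki67 and Top2a were listed higher in cluster 0 and Nasp alone in cluster 7, and mt-Co1 was listed lower in both; their part in these values was not tested.

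**Figure D4:**
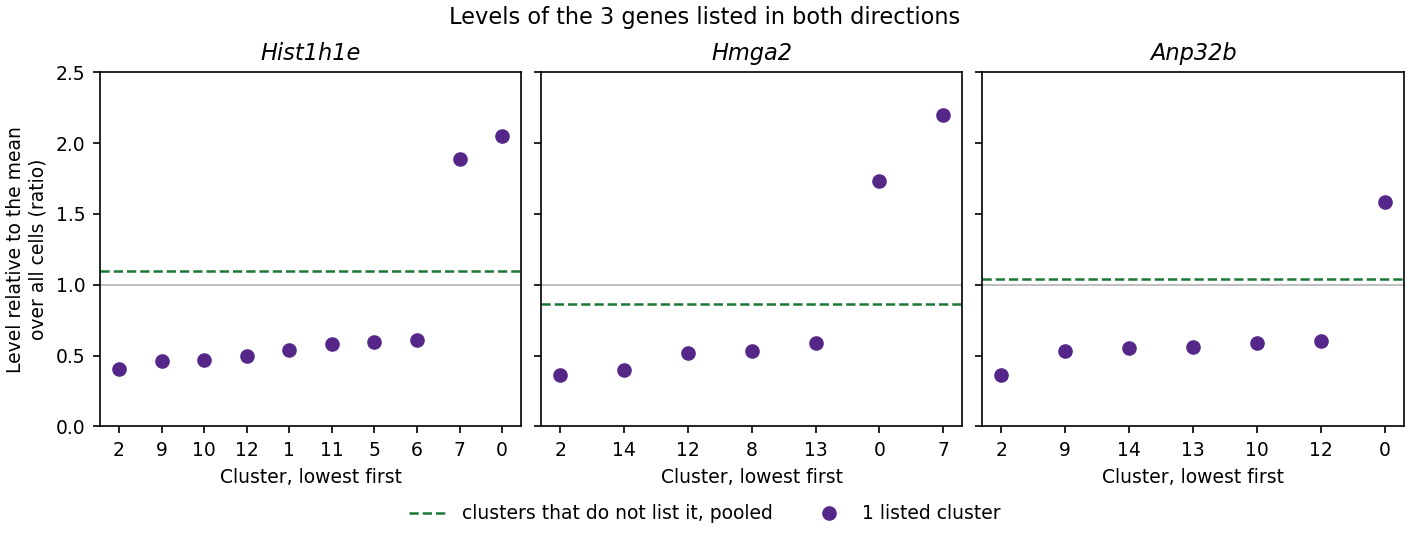
Level of Hist1h1e, Hmga2 and Anp32b in each cluster that lists them (points, lowest first along the x axis), as a ratio to the gene's mean over all cells (y axis; grey line at 1). The dashed line is the pooled level of the clusters with no entry. For each gene cluster 0 lies above 1 and cluster 2 is lowest. Cluster 7 lies above 1 for Hist1h1e and Hmga2 and has no entry for Anp32b. Points have no error because no replicate exists.

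The mesenchyme-like clusters 9 and 10 listed 3 and 2 of the 8 genes as lower, against 4.01% and 4.09% of all genes in the table. Besides Hist1h1e, Anp32b was detected in 49.9% of cells in cluster 9 against 67.5% and was 1.90-fold lower according to the authors' deposited table. In cluster 10 Anp32b was detected in 41.7% against 67.7% and was 1.72-fold lower according to the authors' deposited table. H2afx was listed for cluster 9 alone of this pair, at 29.7% against 47.2% and 1.79-fold lower, according to the authors' deposited table.

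Of the 14 chaperone genes besides Anp32b, 9 were listed lower in cluster 9, including Npm3, a nuclear chaperone gene, at 2.46-fold and Ncl at 2.43-fold according to the authors' deposited table. In cluster 10 there were 5 of 14, and the other 9 had no entry. Of the cell cycle lists, 3 genes each of S phase and of G2 and M phase were listed lower in cluster 9, and 2 each in cluster 10, and their part in the values was not tested.

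Cluster 13 was solved to hold 0.497% of all cells and listed 4 of the 8 genes as lower, against 2.01% of all genes in the table. It had no entry for Smarcc1, Smarcb1, Trim28 or Hist1h1e. Cbx1 was detected in 19.6% of its cells against 50.7% outside and was 1.76-fold lower, and H2afx in 21.2% against 46.8% and 1.91-fold lower, according to the authors' deposited table. Hmga2 was detected in 22.3% against 48.7% and was 1.70-fold lower, and Anp32b in 37.4% against 67.1% and 1.80-fold lower, according to the authors' deposited table. Detection of these genes was thus near that in cluster 2 while their folds were smaller. Beside them, the median detection difference of all genes listed lower by 0.75 or less (natural log) was -26.0 percentage points in cluster 13 and -19.4 over all 15 clusters. The G2 and M phase genes Cenpf and Ube2c were listed lower there too, and all 10 mitochondrially encoded genes of the table higher. The part of these genes in the values was not tested.

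Cluster 14, endoderm-like and solved to hold 0.291% of all cells, also listed 4 of the 8 genes as lower, against 9.19% of all genes in the table. Hmga2 was detected in 20.2% of its cells against 48.6% and was 2.5-fold lower according to the authors' deposited table. Smarcc1, whose only entry besides cluster 2 was here, was detected in 28.4% against 45.6% and was 1.90-fold lower according to the authors' deposited table. H2afx was detected in 37.6% against 46.7% and was 1.69-fold lower according to the authors' deposited table. Beside these values, 3 of 10 mitochondrially encoded genes (mt-Co2, mt-Cytb and mt-Nd4) were listed higher in cluster 14 and 3 of 21 G2 and M phase genes (Anp32e, Cbx5 and Hmgb2) lower, and their part was not tested.

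For Anp32b in cluster 14, fold and detection parted. It was detected in 63.3% of the cells inside and in 67.0% of those outside, a difference of -3.7 percentage points, yet its mean was 1.82-fold lower according to the authors' deposited table. A similar gap held for Hist1h1e in cluster 11, at 28.2% against 31.5% and 1.73-fold lower, according to the authors' deposited table. For all genes listed lower by 0.75 or less (natural log), the median difference was -14.6 percentage points over 74 genes in cluster 14 and -1.25 over 10 genes in cluster 11. In cluster 11 the nucleolin gene Ncl was detected in more cells inside than outside, 90.2% against 80.6%, and was still 1.70-fold lower according to the authors' deposited table. Depth per cell is unknown for every cluster, and its part in these entries was not tested.

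**Figure D5:**
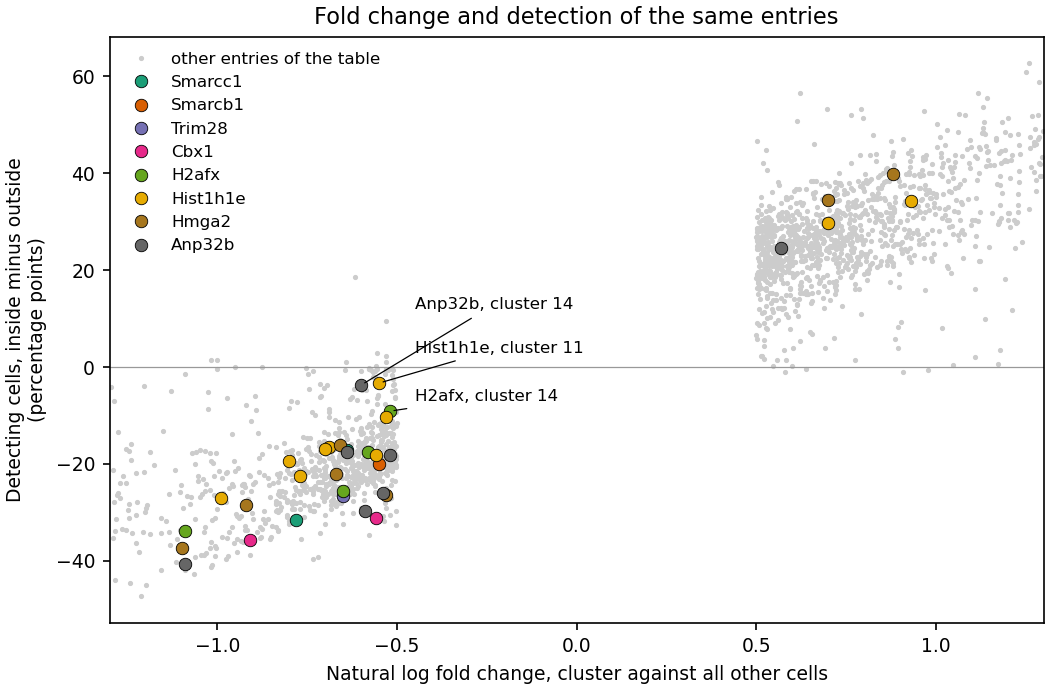
Natural log fold change (x axis) against the difference in detecting cells, inside minus outside (y axis, percentage points), for the 34 entries of the 8 genes (coloured) and the other entries of the deposited table within 1.3 of zero fold (grey). Anp32b in cluster 14, Hist1h1e in cluster 11 and H2afx in cluster 14 lie closest to zero difference, at -3.7, -3.3 and -9.1 points.

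The genes of the table whose entries were most like those of each member were found by the Jaccard index, the number of shared entries (same cluster and direction) over the number in either gene, with ties broken by the nearest fold changes. For Smarcc1 these were Snrpa and Prmt1, with an index of 1 over 2 entries. For Cbx1 they were Ube2c and Adss, also with an index of 1 over 2 entries. H2afx was nearest to Ptma, with 4 shared entries and an index of 0.80, and then to Snrpd1 at 0.75. Hist1h1e shared 8 of its 10 entries with Prtg, an index of 0.80, and 9 with Emb, an index of 0.69. Hmga2 shared all 7 of its entries with Sfrp1, which had 11, an index of 0.64, and was next nearest to Wls at 0.63. Anp32b was nearest to the topoisomerase gene Top2a, with 5 shared entries and an index of 0.71, and then to Supt16h, with 6 and 0.67. These likenesses rest on clusters that share their reference cells and are descriptions only.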

How the data were processed

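Single cells were captured with the 10x V2 chemistry, and the submitters' processing notes name Cell Ranger, Seurat and mm9. The authors deposited 1 table of markers, each cluster set against the rest of the cells. Per the file headers it gives a log fold change, taken as natural log values; of the 3 genes whose entries cover at least 95% of cells, the natural base was possible for 3, and base 2 and base 10 for 0. The deposited fraction of cells detecting a gene is printed as a percent. The deposited p-values compare cells, which are not replicates, and served only as a filter in 1 alternative. Depth, cell numbers, cell filters, doublet treatment and the constant added before logs are unknown from the sources used here; such a constant makes folds of weakly detected genes too small and is part of every relative level.

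Relative cluster sizes were solved by least squares, since the share of all cells detecting a gene has 1 value whichever listing cluster it is worked out from (407 genes, residual SD 0.0228 percentage points, sum 100.002%). A level relative to all cells is f / (1 - w + w f), with f the deposited fold and w the size. The steps were tested on simulated data. The 8 members and all lists were chosen with earlier results of these data known. Genes named are the members, up to 4 genes of each list with the largest change in cluster 2, and the 2 genes of most like pattern. Smarca2, Smarca4, Mki67, Mcm6, Npm3, Dnmt3b, Hist1h1b and Tcf15 were chosen after their values were seen. So were the named chaperone, cell cycle and mitochondrial genes, the markers of cluster 3 in the report, and the genes of the closing section. Supt16 of the chaperone list was matched to Supt16h through RefSeq synonyms. Clusters 3 and 13 were left unnamed after their values were seen, as genes of other kinds stood beside their markers, and cluster 8 because 2 lists tied. Cluster 14 kept the name of its leading list although 6 epithelial markers were listed higher there. Alternatives were stricter entries, other size solutions, another log base and another reference. Calculations used Python 3.11.15 (numpy 2.4.6, scipy 1.17.1, pandas 2.3.3, and for figures matplotlib 3.10.9).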

Additional observations from a re-analysis of the deposited data

How the results depend on the processing

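Counts of the 8 genes depended on how strict an entry had to be; a stricter threshold can only remove entries. At an absolute natural log fold change of at least 1, 3 of the 8 genes were still lower in cluster 2 (Anp32b, H2afx and Hmga2). There, 3.84% of all genes in the table passed that setting. In the 12 other combinations of cluster and direction 0 of the 8 were left, where at most 1.25% of all genes were. At 0.75 or more, cluster 2 had 6, against 9.52% of all genes in the table. At that setting 1 gene was left higher in cluster 0 (Hist1h1e, against 0.919%) and 1 in cluster 7 (Hmga2, against 0.752%). Lower entries were left for Hist1h1e in clusters 9 (against 0.835%) and 10 (against 1.25%) and for Hmga2 in cluster 14 (against 3.01%). Clusters 1, 5, 6, 8, 11, 12 and 13 had 0, against 1.09%, 1.84%, 1.25%, 2.17%, 0.752%, 1.59% and 0.0835%. With detection of at least 50% inside or outside the cluster, 4 were lower in cluster 2 (Anp32b, Cbx1, H2afx and Hmga2), against 11.7% of all genes. Cluster 13 had 2, against 0.752%. Clusters 9, 10, 12 and 14 had 1 each, against 1.75%, 2.26%, 1.59% and 4.43%. Clusters 1, 5, 6, 8 and 11 had 0, against 0.752%, 2.01%, 0.668%, 1.84% and 0.668%. With a detection difference of at least 20 percentage points, cluster 2 still had 8, against 21.4% of all genes. Clusters 12 and 14 had 1 each (Hmga2), against 2.26% and 3.09%. Clusters 1, 5, 6, 8, 9 and 11 had 0, against 0.919%, 3.51%, 0.919%, 1.75%, 1.59% and 0.0835%. With a deposited adjusted p under 1e-10, clusters 11, 13 and 14 had 0, against 0.919%, 0.251% and 1.84% of all genes. The counts of the other clusters did not change, and cluster 2 kept 8 against 25.7%.

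Relative levels moved by at most 0.00037 under the 3 other ways of solving the cluster sizes. With base 2 they moved by up to 0.456. A change of log base cannot move a level across 1, so the side of 1 was fixed beforehand. With cluster 2 taken out of the reference, 25 of 26 entries stayed past 0.5 on the natural log scale in the same direction, and Anp32b in cluster 0 fell to 0.47. Cluster 2 listed every gene followed here as lower, so leaving it out could only deepen the lower entries, whose result was fixed beforehand. Only the 5 higher entries could have fallen under the threshold, and among them Anp32b in cluster 0 did. With cluster 0 out of the reference, the 3 entries of cluster 2 that could be recomputed (Anp32b, Hist1h1e and Hmga2) were 2.69-fold, 2.18-fold and 2.62-fold lower. No paired analysis was possible because no value carries a replicate. Depth is unknown, so no counting interval could be given.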

Other observations

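Some chromatin genes were listed in the direction opposite to genes of the 8 in the same cluster, besides the 10 listed higher in cluster 8, where Hmga2 was lower. Rbbp7, which encodes a histone-binding subunit shared by Polycomb and deacetylase complexes, was 2.81-fold higher in the endoderm-like cluster 14 and was detected there in 84.4% of cells against 46.0% according to the authors' deposited table. In the neuron-like cluster 12 it was 1.95-fold lower according to the authors' deposited table. Hist3h2ba, an H2B histone gene, was 2.72-fold higher in cluster 12, where 3 of the 8 genes were listed lower, and was detected in 50.9% of cells against 15.8% according to the authors' deposited table. The remodeller gene Chd3 was 1.86-fold higher in the mesenchyme-like cluster 10, where Hist1h1e and Anp32b were listed lower, according to the authors' deposited table.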
